A study of Tupaia belangeri with 6 samples.

Results

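RAB proteins are small GTPases that mark the membranes of the cell and steer vesicles between them. Each one switches between a GDP-bound and a GTP-bound state. Exchange factors load GTP, GTPase-activating proteins end the active state, and effectors such as tethers and motors bind the active form. In neurons the family is best known for the transport and release of synaptic vesicles and for the sorting of endosomes.

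The members were all features of the tree shrew (TS) annotation whose symbol is RAB followed by a number and at most 1 letter from A to D. This gave 56 members among 83605 features. A UMI was found for 50 of them, and 6 were listed at 0 in all libraries, namely RAB1A, RAB1B, RAB33A, RAB39A, RAB43 and RAB5C. Among all 27777 annotated genes 30.3% were also at 0, so that a 0 in these files is no evidence that a gene is silent. Antisense, intergenic and copy-like features named after a RAB gene, 119 in number, were left out.

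Nuclei of the hippocampus of Tupaia belangeri were sequenced with a droplet method that reads the 3′ ends of transcripts, with 1 library for each of 3 control and 3 ALP TSs. ALP stands for Alzheimer's-like pathology. The ALP animals aged naturally, carried no transgene and received no treatment in the labels. Both groups were chosen by their time in a pipeline maze, longer in ALP animals and shorter in controls. The controls were matched in age. The sex of the animal behind each library is not given in the labels.

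The libraries held 3011 to 8785 barcodes and 19182981 to 35898940 UMIs, and 28233 nuclei passed the filters. Of these, 24420 fell into 8 classes named from marker genes. These were astrocyte-like (Astro, 3239 nuclei), endothelial-like (Endo, 496), microglia-like (Micro, 1432), oligodendrocyte-like (Oligo, 8690), oligodendrocyte precursor-like (OPC, 2717), granule-like (Gran, 2629), pyramidal-like (Pyra, 2783) and interneuron-like (InN, 2434). The defining markers GAD2, SLC32A1, NRGN and MOBP were at 0 in all nuclei, so that these classes rest on the other markers of their lists. Unnamed clusters of low depth held 7.33% to 24.7% of the control nuclei and 5.98% to 6.70% of the ALP nuclei per library. In these clusters 26 members had at least 60 UMIs, and every ALP library lay above every control library for 4 of them, beside 5.98% of 7463 features, and below for 1, beside 5.65%. Pairs of libraries shared 4 to 18 barcodes. All levels below are CPM, that is UMIs of a gene over all UMIs of a library's nuclei of 1 class, scaled by TMM unless stated otherwise, and they are compared between classes and libraries, not between genes. The 7 Gran markers summed to 1377 to 1933 CPM in Gran but to 2186 to 3581 CPM in Oligo, so that their sum does not single out Gran. The 6 excitatory markers, of which NRGN is at 0, summed to 450 to 736 CPM in Gran and 62.0 to 97.7 CPM in Oligo.

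The kept nuclei held 119522 UMIs of the members, and RAB26 alone gave 12.6% of them. The upper limit on genes per nucleus weighed on this gene, since 29.4% of its UMIs in all barcodes lay in kept nuclei, against 39.3% for the members together. Of the 56 members, 36 had enough counts to be tested between classes, and 14 with UMIs had too few.

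Between neuronal classes (Gran, Pyra and InN) and non-neuronal classes (Astro, Endo, Micro, Oligo and OPC), RAB27B, RAB3C, RAB26, RAB15, RAB6B and RAB36 were higher in neurons, and RAB32, RAB34, RAB13, RAB11B and RAB33B were lower. A call needed an adjusted p under 0.05 and a log2 fold change larger than 1 in either direction (edgeR's quasi-likelihood test with Benjamini-Hochberg adjustment over all features tested). The 6 higher members are 16.7% of the 36 tested, and 20.9% of all 14330 features were called higher. The 5 lower members are 13.9%, and 15% of all features were called lower. The shares of members called were thus close to those of all features, and the calls are results about single members, not about the family. At any fold, 9 of the 36 members were higher and 20 of the 36 lower at an adjusted p under 0.05, beside 38.7% and 33.5% of all features. Without the fold threshold the lower share was thus above that of all features and the higher share below it. The median log2 fold change was −0.32 over the members and 0.04 over all features.

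**Figure D1:**
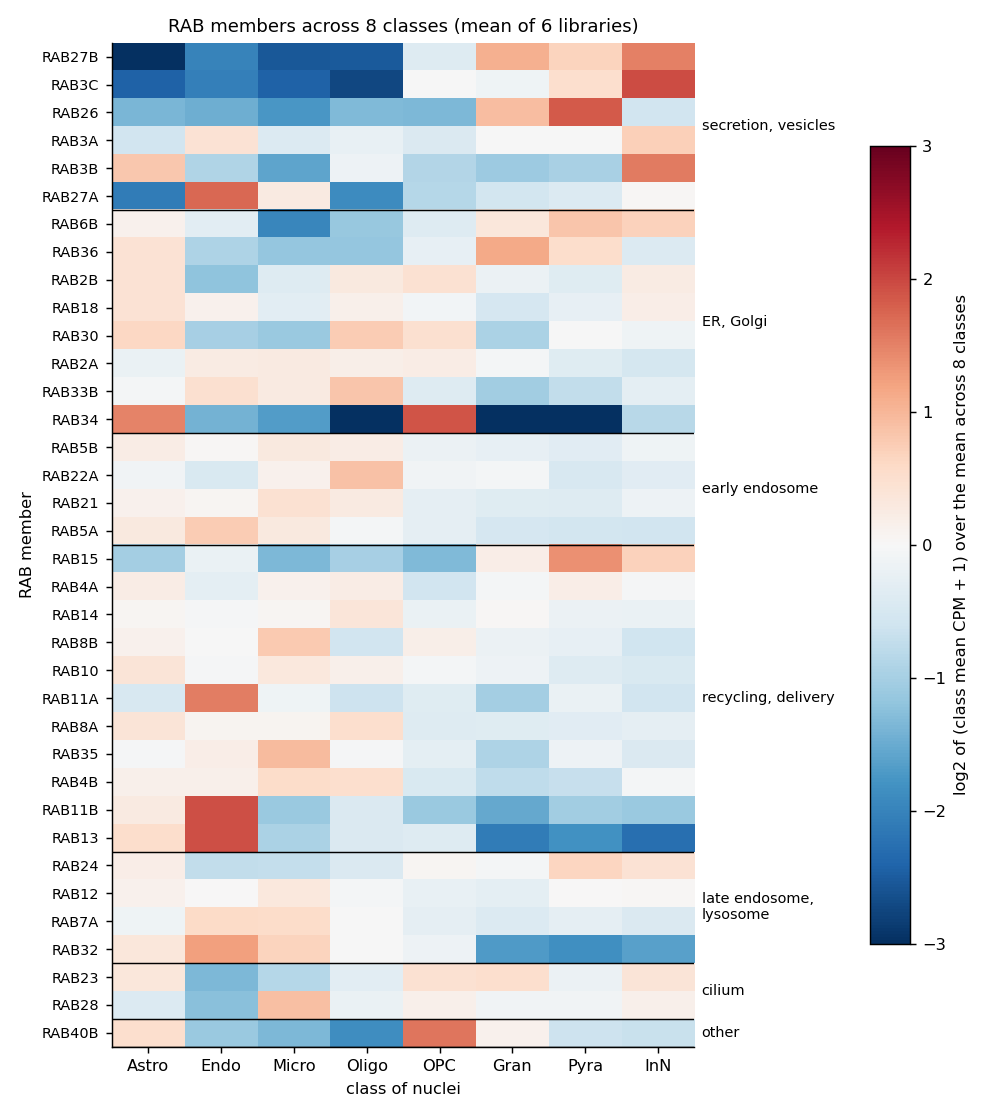
Heat map of the 36 tested members (rows, grouped by role) in 8 classes of nuclei (columns), where colour gives log2 of the mean CPM plus 1 of 6 libraries over the mean across classes. RAB27B and RAB3C are red in InN, RAB26 and RAB15 in Pyra, RAB34 in Astro and OPC, and RAB11A, RAB11B and RAB13 in Endo.

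Members that act in regulated secretion and at synaptic vesicles held 3 of the 6 higher calls, with 6 members tested, beside 20.9% of all features called higher. Roles hold few members, so that these and the counts by role below are results about single members. RAB27B, which helps to dock secretory and synaptic vesicles, reached 65.6, 64.7 and 56.9 CPM on average over the neuronal classes in control 1, 2 and 3, and 77.4, 83.4 and 84.9 CPM in ALP 1, 2 and 3. Over the non-neuronal classes its levels were 6.11 to 10.8 CPM (log2 fold change 3.31 ± 0.12 SE, edgeR adjusted p = 4.5e-33). The groups of classes were far apart in every library. Among non-neuronal classes OPC stood out, at 15.6 to 33.1 CPM, while the mean in Astro was 2.96 ± 1.78 (SD, n = 6).

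RAB3C is a paralog of RAB3A, the most studied RAB of synaptic vesicles. Its neuronal levels were 270.0, 300.4 and 263 CPM in the controls and 302, 329 and 333 CPM in the ALP libraries, against 39.7 to 61.9 CPM in non-neuronal classes (log2 fold change 2.89 ± 0.12 SE, edgeR adjusted p = 1.2e-29). InN led in all 6 libraries with 564 ± 87.7 CPM (SD, n = 6), ahead of Pyra with 204 ± 51.5 CPM. OPC again stood above the other non-neuronal classes, with 143 ± 31.6 CPM against 20.8 ± 7.10 CPM in Oligo. RAB3A itself differed less between neurons and the rest (log2 fold change 0.52 ± 0.14 SE, edgeR adjusted p = 0.00061), and RAB3B did not pass the test (0.23 ± 0.32 SE, edgeR adjusted p = 0.53).

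RAB26 has been linked to secretory granules and to the delivery of synaptic vesicles to autophagy. Its neuronal levels were 175, 293 and 216 CPM in the controls and 766, 388 and 646 CPM in the ALP libraries. Its non-neuronal levels were 27.8, 99.0 and 80.0 CPM in the controls and 86.0, 76.8 and 69.8 CPM in the ALP libraries (log2 fold change 2.17 ± 0.11 SE, edgeR adjusted p = 3.4e-26). Neurons were higher in each of the 6 libraries.

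Members of the endoplasmic reticulum and Golgi moved both ways, with 2 of 8 higher and 2 lower in neurons, beside 20.9% and 15% of all features. RAB6B, the brain-enriched form of the Golgi protein RAB6, ranged from 53.4 to 78.2 CPM in neuronal and from 23.8 to 30.5 CPM in non-neuronal classes (log2 fold change 1.37 ± 0.10 SE, edgeR adjusted p = 6.0e-19). RAB36 was highest in Gran, at 25.1 ± 5.47 CPM (SD, n = 6), and lowest in Micro, at 4.31 ± 3.87 CPM. Its mean in Pyra, 16.2 CPM, was close to that in Astro, 15.2 CPM. Its InN mean lay below those of Astro and OPC (9.14 CPM) and above those of Endo, Micro and Oligo. The higher call of RAB36 thus does not hold for InN against each non-neuronal class. RAB34, a Golgi-associated member with a role in the formation of cilia, was highest in OPC and Astro. It reached 115 ± 26.6 CPM in OPC and 86.6 ± 20.1 CPM in Astro, but 1.17 ± 0.98 CPM in Oligo and 1.55 ± 1.64 CPM in Gran (SD, n = 6). Between the groups of classes its log2 fold change was −2.41 ± 0.23 SE (edgeR adjusted p = 1.8e-14), and the averages over classes did not overlap. Its InN mean, 16.7 CPM, lay above those of Endo (10.7 CPM), Micro (8.87 CPM) and Oligo. The lower call of RAB34 thus does not hold for InN against each non-neuronal class. RAB33B, which binds the autophagy protein ATG16L1, lay at the edge of the call (−1.06 ± 0.16 SE, edgeR adjusted p = 6.9e-08), and its log2 fold change was −0.92 without control 3, −0.999 without control 1, −0.96 without ALP 3 and −0.97 without the filter on low counts.

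Among members of recycling and delivery to the plasma membrane, 1 of 11 was higher in neurons, 2 were lower, and 9 were lower at any fold. The shares of all features were 20.9%, 15% and 33.5%. RAB15, a regulator of recycling endosomes, was highest in Pyra in all 6 libraries, with 24.7, 20.2 and 17.6 CPM in the controls and 29.3, 26.3 and 24.9 CPM in the ALP libraries. RAB13, known from tight junctions, had its highest mean in Endo at 79.8 ± 24.7 CPM (SD, n = 6) and its lowest in InN at 3.40 ± 1.40 CPM (neuronal against non-neuronal −2.36 ± 0.15 SE, edgeR adjusted p = 5.9e-21).

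RAB11A and RAB11B, both of recycling endosomes, were highest in Endo in all 6 libraries. RAB11B there measured 173, 69.8 and 58.5 CPM in the controls and 84.4, 74.9 and 76.4 CPM in the ALP libraries, while its class means elsewhere ran from 7.10 CPM in Gran to 27.6 CPM in Astro. RAB11A measured 33.3 to 76.7 CPM in Endo, and its next highest class mean was 18.9 CPM in Micro. RAB11B was called lower in neurons (−1.23 ± 0.15 SE, edgeR adjusted p = 4.4e-11). RAB11A was not called (−0.56 ± 0.13 SE, edgeR adjusted p = 0.00014), and its log2 fold change was 0.20 without the upper limit on genes, where no Endo class could be named. Endo held 27 to 218 nuclei per library, which makes these levels less precise than those of other classes.

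The early endosome gave no call in either direction, although all 4 tested members were lower in neurons at any fold, beside 33.5% of all features. RAB5A, which drives the fusion of early endosomes, had a log2 fold change of −0.73 ± 0.10 SE (edgeR adjusted p = 2.9e-09). RAB22A, also of early endosomes, was highest in Oligo in all 6 libraries, with 64.3 ± 16.8 CPM (SD, n = 6) against 37.5 ± 13.6 CPM in Micro. Of 4 members of late endosomes, lysosomes and autophagy, RAB32 was lower in neurons, beside 15% of all features. This protein of lysosome-related organelles had 0 to 2.30 CPM on average in neuronal classes and 4.84 to 14.3 CPM in the others (−2.61 ± 0.25 SE, edgeR adjusted p = 2.7e-14). RAB24, linked to autophagy, was higher at any fold (0.67 ± 0.08 SE, edgeR adjusted p = 3.4e-11).

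RAB23, an inhibitor of Hedgehog signalling at the cilium, had a log2 fold change of 0.59 ± 0.09 SE (edgeR adjusted p = 1.5e-08) and was not called. RAB28 had its highest mean in Micro, 484 ± 169 CPM (SD, n = 6), and Micro was its highest class in 5 of 6 libraries. The remaining members named by their size of change were RAB4B (−0.83 ± 0.22 SE), RAB35 (−0.81 ± 0.26 SE) and RAB8A (−0.56 ± 0.14 SE), all of recycling or delivery to the plasma membrane.

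**Figure D2:**
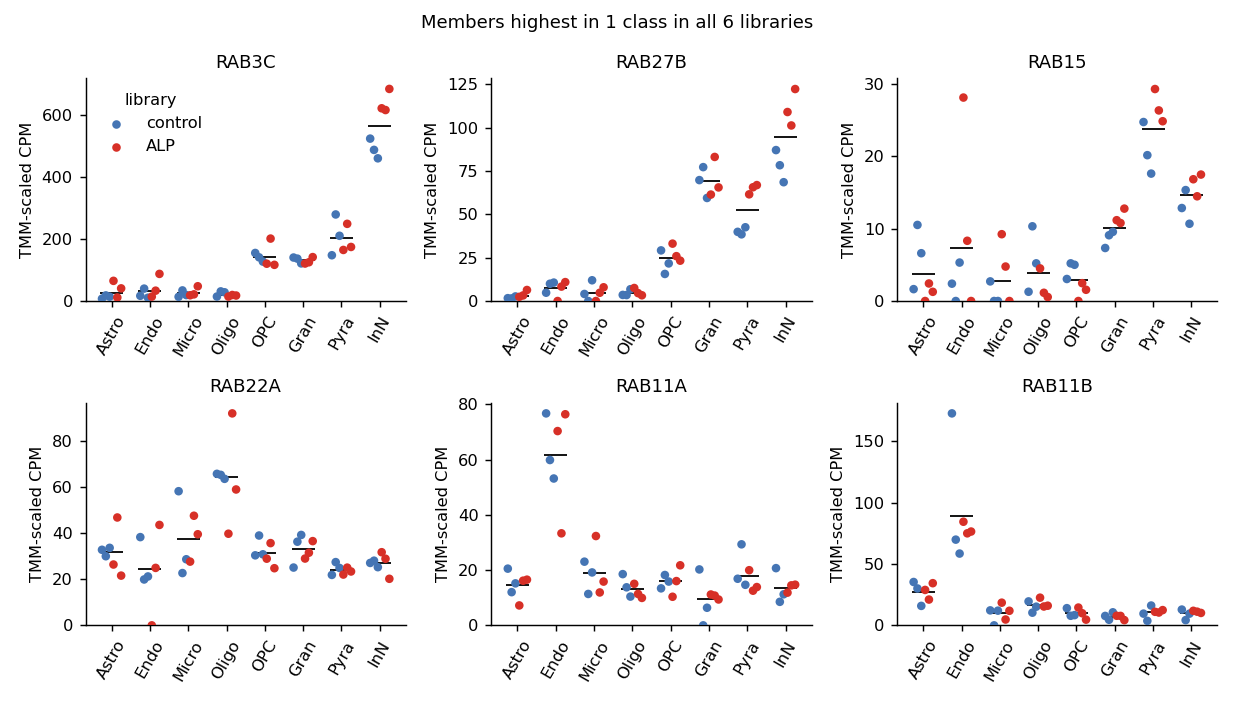
CPM (vertical axes, from 0) of 6 members in each class of nuclei (horizontal axes), with 1 point per library (control blue, ALP red) and a line at the mean of 6 libraries. RAB3C and RAB27B peak in InN, RAB15 in Pyra, RAB22A in Oligo, and RAB11A and RAB11B in Endo.

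Among neurons, single members differed between excitatory classes (the mean of Gran and Pyra) and InN, in both directions. The shares of members called were below those of all features in either direction. RAB26 (log2 fold change 1.89 ± 0.17 SE, edgeR adjusted p = 1.2e-14) and RAB36 (1.39 ± 0.21 SE, edgeR adjusted p = 1.7e-07) were higher in excitatory classes. The 2 called members are 5.56% of the 36 tested, beside 9.46% of all features. RAB34 (−3.43 ± 0.27 SE), RAB3B (−3.25 ± 0.29 SE) and RAB3C (−1.79 ± 0.15 SE) were lower, which is 8.33% of the members beside 9.57% of all features. RAB3B, a vesicle RAB, ranged from 15.6 to 29.3 CPM in InN and from 0 to 7.34 CPM in Gran and Pyra. Within regulated secretion and synaptic vesicles, the members called thus went opposite ways, with RAB26 toward excitatory and RAB3B and RAB3C toward InN nuclei.

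RAB26 followed the order Pyra, Gran and InN in all 6 libraries, with the 5 non-neuronal classes below. Their mean levels ran from 59.3 CPM in Micro to 79.6 CPM in Oligo, and their ranges over libraries overlapped. Control 1 was the lowest library in every class, at 23.1 to 31.2 CPM in the non-neuronal classes. In Pyra, Gran and InN it had 252, 199 and 73.5 CPM.

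In Pyra, RAB26 reached 252, 416 and 269 CPM in control 1, 2 and 3, and 1488, 679 and 1237 CPM in ALP 1, 2 and 3. The groups did not overlap, and ALP 2 was the lowest of the ALP libraries. The log2 fold change was 1.85 ± 0.32 SE, a 3.62-fold difference, and it missed the threshold over the 13272 features of this class (edgeR adjusted p = 0.10). In Pyra edgeR called 0% of all features, whereas 17% had an unadjusted p under 0.05. DESeq2 called RAB26 (adjusted p = 3.7e-05), and its share of calls over all features is not given here.

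In Gran the levels were 199, 327 and 266 CPM in the controls and 624, 341 and 546 CPM in the ALP libraries. ALP 2 lay only just above control 2, and the change was not called (0.97 ± 0.27 SE, edgeR adjusted p = 0.091). InN had 73.5, 135 and 115 CPM in the controls and 186, 144 and 156 CPM in the ALP libraries, again without overlap and without a call (0.61 ± 0.22 SE, edgeR adjusted p = 0.16). In InN it was called without the upper limit on genes (1.18, edgeR adjusted p = 0.043) and without the filter on low counts (0.67, edgeR adjusted p = 0.012). Without that filter RAB26 was also called in Gran (1.06, edgeR adjusted p = 0.00045) and in Pyra (2.01, edgeR adjusted p = 1.7e-13). These log2 fold changes lay close to those of the main fit, 0.97 in Gran and 1.85 in Pyra, while the adjusted p fell far lower. The share of all features called without the filter is not given here, so these calls have no background. With 1 library left out RAB26 was called in Gran without control 2 (1.19, edgeR adjusted p = 0.045) and in Pyra without ALP 2 (2.14, edgeR adjusted p = 0.048).

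Summed over Gran and Pyra, RAB26 was higher in ALP TSs. Its levels were 188, 365 and 233 CPM in the controls and 1122, 499 and 907 CPM in the ALP libraries, with no overlap. The log2 fold change was 1.70 ± 0.33 SE (3.26-fold, edgeR adjusted p = 0.0482), and RAB26 was the 1 member called of 35 tested, beside 1.82% of 16316 features. This call lay close to the threshold. It was lost without control 3 (1.64, adjusted p = 0.16), without ALP 1 (1.47, adjusted p = 0.21) and without ALP 3 (1.68, adjusted p = 0.24). It was also lost without the upper limit on genes (1.55, adjusted p = 0.060), with the replicate block (1.69, adjusted p = 0.12) and with the low-depth clusters added after seeing the data (1.81, adjusted p = 0.072). Each log2 fold change kept its sign.

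**Figure D3:**
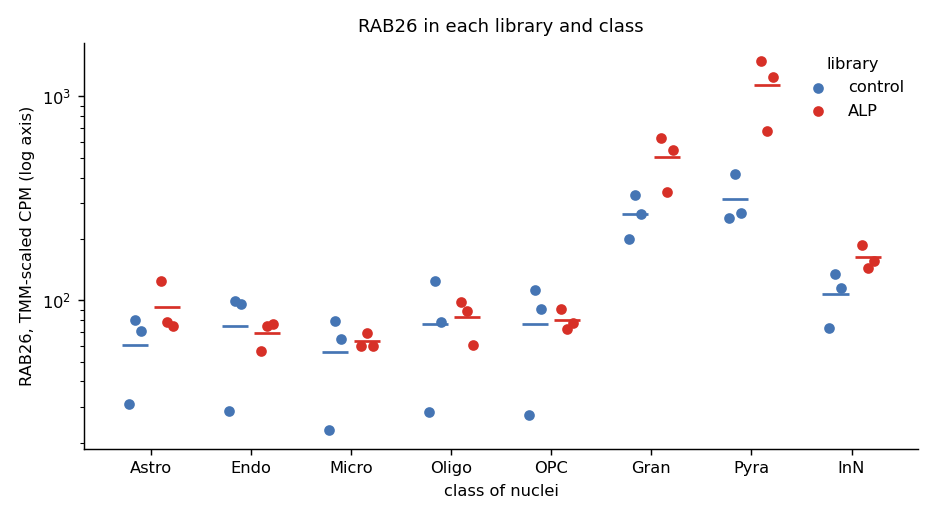
RAB26 in each class of nuclei (horizontal axis) as CPM on a log axis, with 1 point per library (control blue, ALP red) and a line at the mean of 3 libraries. In Pyra the ALP libraries lie at 679 to 1488 CPM and the controls at 252 to 416 CPM, while the groups overlap in the 5 non-neuronal classes.

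In the non-neuronal classes RAB26 did not pass the test. The log2 fold changes were 0.57 ± 0.33 SE in Astro, 0.45 ± 0.44 SE in Micro, 0.25 ± 0.44 SE in Oligo and 0.18 ± 0.41 SE in OPC, with edgeR adjusted p from 0.41 to 0.89, and Endo had too few counts. Leaving out control 1, the library with the lowest values, turned the direction in 3 of these classes. The log2 fold change was then −0.25 in Micro, −0.27 in Oligo and −0.33 in OPC.

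A ratio of classes within 1 library cancels a factor that multiplies all classes of that library alike, but not a background added to them. RAB26 in Pyra over InN was 3.43, 3.09 and 2.34 in the controls and 7.98, 4.71 and 7.91 in the ALP libraries, with no overlap (two-sided exact permutation p = 0.1, the smallest that 3 against 3 libraries allow, and 0.33 when adjusted over 5 ratios). Gran over InN was 2.71, 2.43 and 2.32 in the controls and 3.35, 2.37 and 3.49 in the ALP libraries, where ALP 2 lay within the controls (exact permutation p = 0.3). Pyra over the mean of the non-neuronal classes was 9.09, 4.2 and 3.36 against 17.3, 8.85 and 17.7, and control 1 overlapped with ALP 2 (exact permutation p = 0.2). None of the 5 ratios could reach 0.05 in this design.

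Detection was compared after each nucleus was thinned to 1000 UMIs. RAB26 was then found in 18.6%, 23.5% and 18.3% of Pyra nuclei in the controls and in 62.2%, 36.6% and 51.4% in the ALP libraries. Unthinned, these shares were 39.8%, 55.3% and 43.9% against 87.1%, 65.8% and 88.3%. In Oligo, taken as a class of low RAB26, the thinned shares were 2.49% to 10.2% in the controls and 4.80% to 8.40% in the ALP libraries, at median depths of 1171 to 1632 UMIs. The Pyra shares were above this background in every library, and the 95% Wilson interval of the lowest ALP library, 33.1% to 40.3%, lay above that of the highest control library, 17.5% to 30.8%. These intervals cover counting error only, and 5 to 23 Pyra nuclei per library were too shallow for thinning.

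Pyra and Gran are mixtures of clusters, and their make-up differed between libraries. Pyra gave 35.2%, 74.0% and 42.6% of the nuclei summed over both classes in the controls, and 63.8%, 59.5% and 53.6% in the ALP libraries. Cluster 18, marked by B4GALNT3, held 77.6% of the Pyra nuclei of control 3 but at most 24.5% in any other library. Within this cluster RAB26 had 224, 536 and 250.1 CPM without TMM scaling in the controls and 1459, 910.1 and 1268 CPM in the ALP libraries. Without the cluster, an alternative chosen after seeing the data, the log2 fold change in Pyra was 1.90 (edgeR adjusted p = 0.14).

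In cluster 9, the largest of Pyra and marked by PRSS16, RAB26 had 332, 426 and 279 CPM in the controls and 1044, 654 and 825 CPM in the ALP libraries. In cluster 13, marked by TSHZ2, it was lower than in the other Pyra clusters of the same library, at 53.7 and 103 CPM in 2 controls and 237, 123 and 190 CPM in the ALP libraries. The ALP libraries were above the controls in each Pyra cluster with at least 10 nuclei in a library of both groups, and in Gran cluster 20. Several of these clusters lacked a control with 10 nuclei. Control 3 was missing in clusters 13 and 15, controls 2 and 3 in cluster 25, and control 2 in Gran cluster 20. Control 2 was the highest control in each Gran and Pyra cluster where it had enough nuclei. In Gran cluster 3, ALP 2 with 293 CPM lay below control 2 with 341 CPM.

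**Figure D4:**
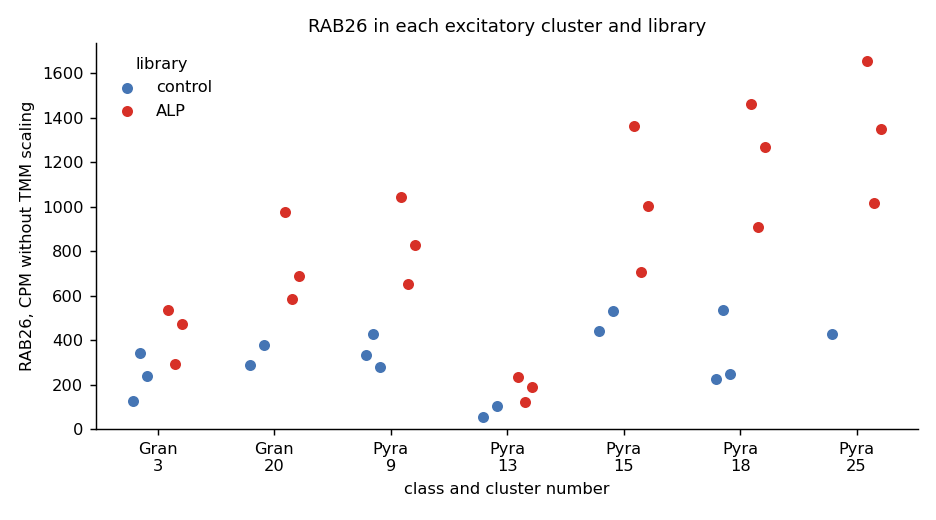
RAB26 as CPM without TMM scaling (vertical axis, from 0) in each Gran and Pyra cluster (horizontal axis), with 1 point per library of at least 10 nuclei (control blue, ALP red). ALP points lie above control points in all clusters shown but Gran 3, and cluster 13 has the lowest levels. Gran 20 has no point of control 2, Pyra 13 and 15 have none of control 3, and Pyra 25 has control 1 only.

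Median depth, the excitatory markers and LINC-FRMD8-1 also differed between the groups in Pyra nuclei, while the sums of Oligo and InN markers overlapped. Their median depth was 3440 to 3754 UMIs in the controls and 4024 to 5478 in the ALP libraries. The summed level of the 6 excitatory markers, 5 of them detected, was 634 to 762 CPM in the controls and 859 to 1104 CPM in the ALP libraries. LINC-FRMD8-1, the non-coding transcript that took 20.6% of all UMIs, had 160282 to 199716 CPM in control Pyra nuclei and 279976 to 472588 CPM in ALP Pyra nuclei. The 6 Oligo markers, of which MOBP is at 0, summed to 209 to 593 CPM in control and 153 to 221 CPM in ALP Pyra nuclei, and the 10 InN markers, of which GAD2 and SLC32A1 are at 0, to 73.7 to 478 CPM and 92.2 to 122 CPM. The part of these measures in the difference of RAB26 was not tested.

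The use of strand in the counting is not stated, so that reads of overlapping genes on either strand may be shared. RAB26 stands next to TRAF7 in the order of the annotation. Summed over Gran and Pyra, TRAF7 had 11.0 to 15.3 CPM in the controls and 13.8 to 19.9 CPM in the ALP libraries, and the intergenic feature LINC-RAB26-1 had 3.76 to 7.91 and 6.04 to 17.98 CPM. Both overlapped between the groups. A sharing of reads was not tested.

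Over the 8 classes fitted 1 by 1, 0 of 193 pairs of a member and a class were called between ALP and control at an adjusted p under 0.05 and a log2 fold change beyond 0.25, beside 1.45% of 72930 pairs of all features (edgeR's quasi-likelihood test). At an unadjusted p under 0.05 there were 15 pairs, or 7.77%, beside 17.5% of all pairs. DESeq2 called 2 pairs, RAB26 in Gran and in Pyra, and its share of calls over all features is not given here. All features gave 0.207% of calls in Astro, 0% in Endo, 0.924% in Micro, 4.87% in Oligo, 1.71% in OPC, 2.09% in Gran, 0% in Pyra and 0.427% in InN. The median log2 fold change over the 193 pairs was 0.02, and 99 were higher in ALP.

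**Figure D5:**
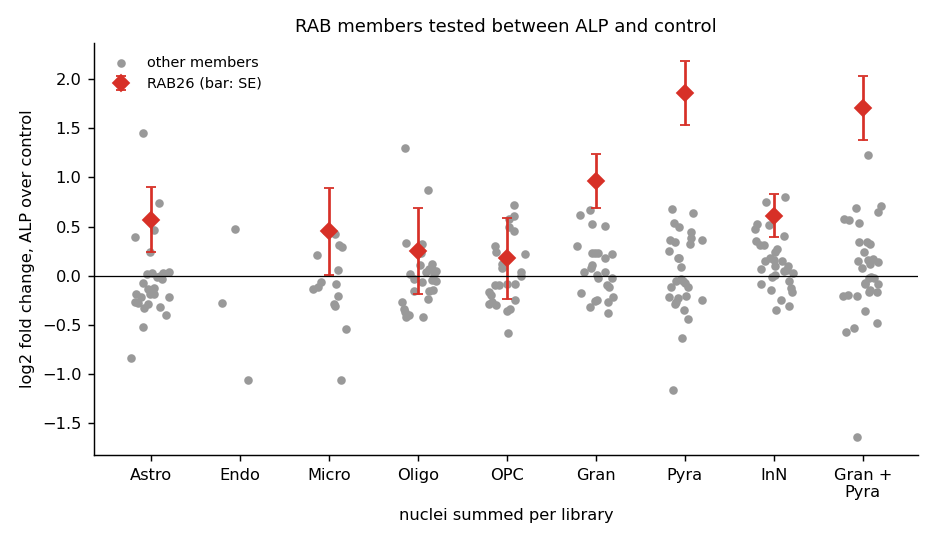
Log2 fold change of ALP over control (vertical axis) of each tested member in 8 classes and in Gran and Pyra summed (horizontal axis), with RAB26 as red diamonds with bars of 1 SE and other members grey. RAB26 is the highest member in Gran, in Pyra (1.85) and in their sum (1.70), and was not tested in Endo.

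RAB27B and RAB3C, both RABs of vesicles, were among the members named in neuronal classes. RAB27B in Pyra had 39.9, 38.5 and 42.6 CPM in the controls and 61.6, 65.7 and 66.9 CPM in the ALP libraries (0.67 ± 0.19 SE, edgeR adjusted p = 0.14). In InN it had 87.1, 78.4 and 68.6 CPM against 109, 101 and 122 CPM (0.53 ± 0.16 SE, edgeR adjusted p = 0.11). RAB3C in InN had 523, 486 and 459 CPM against 620.3, 615 and 683 CPM (0.40 ± 0.12 SE, edgeR adjusted p = 0.11). In each of these the groups did not overlap, and none passed the adjustment. The members were named for their small p, so that the lack of overlap adds no support. Of all features, 17% in Pyra and 19.7% in InN had an unadjusted p under 0.05. RAB2B, of the Golgi, was the second member in Gran (0.67 ± 0.35 SE, edgeR adjusted p = 0.34).

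In glia and endothelium the smallest p also stayed short of a call. RAB5B, a RAB of early endosomes, had 99.0, 56.8 and 74.2 CPM in Micro of the controls and 23.1, 52.4 and 35.6 CPM in the ALP libraries (−1.06 ± 0.33 SE, edgeR adjusted p = 0.15). In OPC it had 65.8, 39.0 and 41.7 CPM against 31.1, 37.0 and 31.1 CPM (−0.58 ± 0.27 SE, edgeR adjusted p = 0.32). The groups did not overlap in either class, though control 2 and ALP 2 were close in both. RAB5B was named there for its small p, so that the lack of overlap adds no support. Of all features, 11.9% in Micro and 15.4% in OPC had an unadjusted p under 0.05.

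RAB34 in Astro had 102, 102 and 102 CPM against 69.7, 89.7 and 54.7 CPM (−0.52 ± 0.21 SE, edgeR adjusted p = 0.24). RAB4B in Oligo, a RAB of fast recycling, had 10.5, 0 and 6.01 CPM against 20.3, 15.9 and 19.3 CPM (1.30 ± 0.42 SE, edgeR adjusted p = 0.10). RAB3C in Astro had 7.39, 18.03 and 13.9 CPM against 64.9, 11.3 and 40.7 CPM, so that ALP 2 lay among the controls (1.45 ± 0.57 SE, edgeR adjusted p = 0.22), and without ALP 2 it was called (2.02, edgeR adjusted p = 0.032). The remaining members with the smallest p were RAB14 in Micro (−0.54 ± 0.24 SE), RAB30 in Oligo (−0.37 ± 0.18 SE), RAB4A in OPC (0.72 ± 0.36 SE), and RAB28 (−1.06 ± 0.44 SE) and RAB2A (0.47 ± 0.35 SE) in Endo, with edgeR adjusted p from 0.26 to 0.97.

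The partners of the RAB proteins were examined with a list of 156 genes for prenylation, exchange factors, GTPase-activating proteins and effectors. Of these, 106 were tested in at least 1 class, in 622 pairs of gene and class. No pair was called (0 higher and 0 lower in edgeR), beside 1.45% of all pairs. There were 65 pairs (10.5%) with an unadjusted p under 0.05, beside 17.5% of all pairs. DESeq2 called 1 pair, and its share of calls over all features is not given here. Summed over Gran and Pyra, 105 of the genes were tested, and DENND2A, an exchange factor, was called lower while 0 were called higher. Of all 16316 features in this fit 1.82% were called, 226 lower and 71 higher. DENND2A had 49.3, 26.8 and 39.7 CPM in the controls and 16.9, 17.9 and 15.7 CPM in the ALP libraries (−1.24 ± 0.25 SE, edgeR adjusted p = 0.049). The groups did not overlap, which naming a called gene makes likely. The call was lost without any 1 library but control 2, with edgeR adjusted p from 0.068 to 0.24.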

How the data were processed

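Single-nucleus RNA-seq libraries of the hippocampus of 3 control and 3 ALP TSs were analysed. For each library the authors deposited counts of UMIs, not normalized, for every feature and barcode after alignment to the TreeshrewDB genome. The matrix headers name Cell Ranger 6.1.2 and the submitters' processing notes name 3.1.0, and the genome build and use of strand are not given in the sources used here. RefSeq names of TupChi_1.0 served for the neighbour of RAB26 only.

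Nuclei with more than 200 and fewer than 2500 genes and under 5% mitochondrial UMIs were kept. They were clustered with scanpy 1.11.5 and leidenalg 0.10.2 (2000 variable features without RAB features, 30 principal components, 20 neighbours, resolution 2, 36 clusters). Clusters were named from at least 3 markers (at least 3% of nuclei, at least 1.5-fold). Clusters with at least 15% marked doublets, of low depth (below 0.5 of the library median), led by markers of another class or with excitatory transcripts in a non-neuronal cluster stayed unnamed, with thresholds set after seeing the data. Low-depth clusters are the unnamed ones below 0.6 of the library median. The 1011 marked doublets were kept and removed in an alternative.

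The study tested single nuclei. Here UMIs were summed per library and class, each library being 1 animal, and compared by the quasi-likelihood test of edgeR 4.0.16 under R 4.3.3 (TMM factors, filterByExpr, Benjamini-Hochberg adjustment over all features), after the scripts were tested on simulated data. Classes were compared with library as a term. Ratios were compared by exact permutation tests. Alternatives were DESeq2 1.42.0, other normalizations, no filter on low counts, a replicate block, each library left out, no upper limit on genes, resolution 1, removal of doublets and RAB features kept for clustering. Named were RAB26, the 10 members with the largest change in each direction between neuronal and other classes, members highest in 1 class in all libraries, the 2 members with the smallest p per class, and called genes. Members and lists were chosen with earlier results of these data known.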

Additional observations from a re-analysis of the deposited data

Results flagged for a closer look

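Unnamed clusters of low depth, which no comparison uses, held 3060 nuclei in 3 clusters, and 26 members had at least 60 UMIs there. For 4 of these members every ALP library lay above every control library, in CPM without TMM scaling and without a test, beside 5.98% of the 7463 features with as many UMIs there. For 1 member, RAB3C, every ALP library lay below every control library, with 87.9 to 120.5 CPM against 127 to 170.5 CPM, beside 5.65% of these features. RAB26 had 253 CPM in the lowest ALP library and 214 CPM in the highest control library. RAB18, a RAB of lipid droplets and the endoplasmic reticulum, had 77.7 CPM against 67.7 CPM, RAB23 had 42.7 CPM against 41.2 CPM, and RAB8B, which acts in delivery to the plasma membrane, had 30.8 CPM against 29.1 CPM. The nuclei numbered 268 to 1420 in the control and 263 to 312 in the ALP libraries.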

How the results depend on the processing

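The number of pairs of a member and a class called between ALP and control, 0 in the 8 classes, was 2 with DESeq2, 6 without the filter on low counts, 2 without the upper limit on genes and 0 to 2 with 1 library left out. For pairs with regulators and effectors, also 0, it was 1 with DESeq2, 7 without the filter and 0 to 4 with 1 library left out. Among the 6 pairs with members without the filter was RAB44 in Micro (−5.45, edgeR adjusted p = 0.049), whose Micro UMIs all lay in control 1. The share of all features called in these alternatives is not given here, so the counts have no background. The log2 fold change of RAB26 over Gran and Pyra, 1.70, was no longer past the threshold with the replicate block (1.69, edgeR adjusted p = 0.12), without the upper limit (1.55, 0.060) and with the low-depth clusters added, chosen after seeing the data (1.81, 0.072), and it ran from 1.47 to 2.01 with 1 library left out. With the block 0 pairs with members and 0 with regulators were called in the 8 classes. Deviations from the group means correlated at r = −0.144, 0.035 and 0.040 in same-numbered libraries and at −0.117 to 0.086 in other pairs. With 3 libraries per group these values cannot decide whether libraries of the same number were processed together, which was not tested. DENND2A was lost in 8 of 16 alternatives. The direction turned for RAB26 without control 1 in Micro (−0.25, range up to 0.95 with another library left out), Oligo (−0.27, up to 0.65) and OPC (−0.33, up to 0.52), and for RAB11A between neuronal and other classes without the upper limit (0.20). RAB members called between neuronal and other classes numbered 10 or 11 in all alternatives, and RAB26 between excitatory and InN nuclei stayed past the threshold (1.76 to 2.01). The cause of these changes was not tested. Depth limits the 14 members with too few counts, and Endo.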

Other observations

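A pair of members outside the naming rule, singled out after their values were seen, had most of their Micro UMIs in 1 library. RAB44, an atypical large RAB of immune cells, had 22 UMIs in 21 of 500 Micro nuclei of control 1 (4.2%, 95% Wilson interval 2.76% to 6.34%, counting error only). It had 0 UMIs in the 35 to 305 Micro nuclei of each other library and 0 in the other 7 classes. At the limit of 3 counts, 0 allows a share of nuclei with a UMI of up to 0.984% in ALP 2 and 8.57% in control 2, which says nothing of nuclei that express the gene. RAB3D, a RAB of secretory granules, had 11 UMIs in the 35 Micro nuclei of control 2, all in 1 nucleus, and 0 to 3 UMIs in the other libraries.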
